A study of Bos taurus with 71 samples.

Results

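At 7 days post-partum (D7), genes of fat absorption and of the brush border were higher in the calf jejunum than in the ileum, with log2 fold changes of 6.50 (SE 0.34) for APOA4 and 4.97 (SE 0.67) for CUBN over 5 calves. B cell, germinal centre and cell cycle genes were higher in the ileum, with log2 fold changes of -4.94 (SE 0.36) for CR2, -4.32 (SE 0.21) for BCL6 and -3.09 (SE 0.18) for PARP1. PARP1 had the largest difference of 33 cell cycle and DNA replication genes, whose median was -2.27. T cell, connective tissue and muscle genes mostly overlapped between the regions. The comparison used 10 of the 71 samples of the series, namely the 5 libraries labelled mid-jejunum and the 5 labelled ileum at D7. The libraries were selected by these labels and by no measured value. A shared animal number was read as 1 calf that gave both libraries.

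The series profiled tissue RNA of Holstein bull calves at birth and at D7, D21 and D42 by RNA-Seq, in the intestine and the rumen. All D7 calves had been given colostrum soon after birth and then milk, and calf starter was offered only to older calves. Per the study's methods, the jejunal piece was taken at a set distance after the pyloric sphincter and the ileal piece just before the ileo-cecal fold, and both were rinsed with buffer, frozen and ground as tissue. Each library is a mixture of the cell types of 1 calf, and EPCAM of epithelium, CD22 of B cells, CD3E of T cells, CSF1R of macrophages, COL1A1 of fibroblasts, CDH5 of endothelium and DES of muscle were above 0 in all 10 libraries. All 17 files labelled distal jejunum in the series hold the same value as the ileum file of the same age and animal for every gene, so whether these values come from ileum or from distal jejunum cannot be told apart from the files. They were not used as samples here, and the word ileum below stands for the label.

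In the small intestine, enterocytes of the jejunum take up most dietary fat and package it with apolipoproteins into chylomicrons, while bile acids and the cobalamin complex are known to be recovered mainly further down. In ruminants the ileum holds a long continuous Peyer's patch, in which B cells divide and diversify early in life, and the jejunum holds separate small patches. Immunoglobulin A made by plasma cells of the lamina propria is carried into the lumen by the polymeric immunoglobulin receptor of the epithelium.

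Values are CPM (counts per 1000000 mapped reads) rounded to whole numbers, and the depth of each library is unknown. The values summed to between 976077 and 979106 per jejunal library and to between 974971 and 977842 per ileal library. Between 14165 and 14734 genes were at 1 CPM or more in the jejunum, against 14573 to 14937 in the ileum. The 10 highest genes took 10.1% to 13.1% of a jejunal library and 5.42% to 7.53% of an ileal library. Each library correlated more closely across genes with the others of its region (median r of log2 values 0.958 to 0.979) than with those of the other region (0.803 to 0.859), and no D7 library stood with the wrong region. Genes are not independent replicates, and these correlations are given as a description.

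Of 13942 genes tested with limma on log2(CPM + 1), 1341 (9.62%) were higher in the jejunum and 2434 (17.5%) were higher in the ileum with an FDR < 0.05 and a fold change > 2, where FDR is the Benjamini-Hochberg adjusted p. The direction was the same in 5 of 5 calves for 1287 and 2353 of these genes. The called jejunal genes took 23.0% to 31.4% of each jejunal library and 4.74% to 7.97% of each ileal library. The called ileal genes took 20% to 27.1% of each ileal library and 6.60% to 8.12% of each jejunal library. The median log2 fold change over all genes tested was -0.25, that is, toward the ileum. Scaling the libraries by median ratios moved it by 0.26 to 0.01 and the calls to 1931 (13.9%) and 1701 (12.2%), so a gene not called on the deposited scale is read against that shift. All 1341 jejunal calls and 1701 of the ileal calls were also called after that scaling. The 2 fits called 0 genes in opposite directions, which a shift of that size could hardly bring about. Genes near 0 could change sign, as EZR did (-0.20 to 0.08, not called in either fit). In tissue RNA, fewer cells of a type and less RNA per cell cannot be told apart, which holds for every group of genes below.

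Gene symbols were paired with identifiers from the study's own tables, and the groups below hold genes of the first such table unless a second table is named. That table holds 1280 of the identifiers tested, of which 133 were called toward the jejunum and 275 toward the ileum. It opens with 141 identifiers in an alphabetical order of their own, and 57 and 81 of these were called here, against 76 and 194 of the other 1139. The table does not say why they are set apart. A choice made on these same libraries would be no independent evidence, so counts outside them are given beside each group of first-table genes that holds any of them. The groups and their members were also chosen with earlier results of these data known. The counts and shares of every group are therefore descriptions and no independent evidence.

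The genes of chylomicron assembly and lipid handling were among the largest jejunal differences. Of 14 genes tested, 10 were higher in the jejunum, 2 were higher in the ileum and 2 were not called, with a median log2 fold change of 2.16 against -0.25 over all genes and shares of 9.62% and 17.5% called over all genes. Outside the 141 set apart, 1 and 2 of 5 were called. Their summed level was 17250 to 48618 CPM in the jejunum and 2336 to 3630 CPM in the ileum. The sums include the genes higher in the ileum, of which APOE alone made up 906 to 1459 CPM in the ileum.

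APOA4, an apolipoprotein of newly made chylomicrons, stood at 12862, 5194, 8539, 18508 and 5977 CPM in the jejunum of calves 1 to 5 and at 81, 71, 173, 90 and 111 CPM in the ileum. The lowest jejunal library held 30.0 times the level of the highest ileal library. The difference was clear in the fit (log2 fold change 6.50, SE 0.34, FDR 2.97e-08). APOA1, the main protein of high density lipoprotein, stood at 19825, 7797, 7449, 15935 and 4612 CPM in the jejunum and at 176, 152, 190, 349 and 632 CPM in the ileum. These groups did not overlap either (log2 fold change 5.23, SE 0.45, FDR 9.75e-07). APOC3, an inhibitor of lipoprotein lipase, stood at 6050, 2760, 3020, 5268 and 2022 CPM in the jejunum and at 7, 16, 26, 115 and 207 CPM in the ileum. Its ileal values ran from the single figures in calf 1 to over 200 in calf 5 and still lay below all jejunal values (log2 fold change 6.50, SE 0.75, FDR 1.01e-05). APOA4, APOC3 and APOA1 are neighbouring protein-coding genes on chromosome 15 of the RefSeq bovine annotation, and APOB, the structural protein of the chylomicron, lies on chromosome 11. APOB stood at 4436, 2625, 3524, 6469 and 2798 CPM in the jejunum and at 361, 353, 443, 556 and 505 CPM in the ileum. Its fitted value was the lowest of these 4 genes (log2 fold change 3.1, SE 0.24, FDR 4.28e-07).

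In all 4 of these genes calves 1 and 4 had the highest jejunal levels, and the jejunal libraries of APOA1 differed by up to 4.30 times. GPD1, which makes the glycerol phosphate backbone of triglyceride, stood at 326, 293, 346, 333 and 230 CPM in the jejunum and at 19, 13, 22, 24 and 33 CPM in the ileum. CD36, a fatty acid transporter of the cell surface, stood at 480, 340, 341, 482 and 238 CPM in the jejunum and at 47, 26, 31, 28 and 23 CPM in the ileum. Neither gene overlapped between regions (GPD1 log2 fold change 3.77, SE 0.20, FDR 3.33e-08 and CD36 log2 fold change 3.56, SE 0.22, FDR 7.96e-08). CIDEB, a protein of lipid droplets and lipoprotein maturation, was higher in the jejunum by 2.26 on the log2 scale (SE 0.19) and INSIG1, a brake on sterol synthesis, by 1.33 (SE 0.25). GPAM (log2 fold change 0.69) and FASN (-0.93), enzymes of fat synthesis, were not called.

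The 2 lipid genes that were higher in the ileum take part in cholesterol efflux. ABCA1, the cholesterol exporter, stood at 7, 10, 15, 26 and 28 CPM in the jejunum and at 211, 185, 190, 132 and 142 CPM in the ileum. Every ileal library lay above every jejunal one (log2 fold change -3.40, SE 0.32, FDR 1.93e-06). APOE stood at 290, 287, 264, 291 and 304 CPM in the jejunum and at 906, 1014, 985, 913 and 1459 CPM in the ileum, again without overlap (log2 fold change -1.85, SE 0.14, FDR 2.93e-07).

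**Figure D1:**
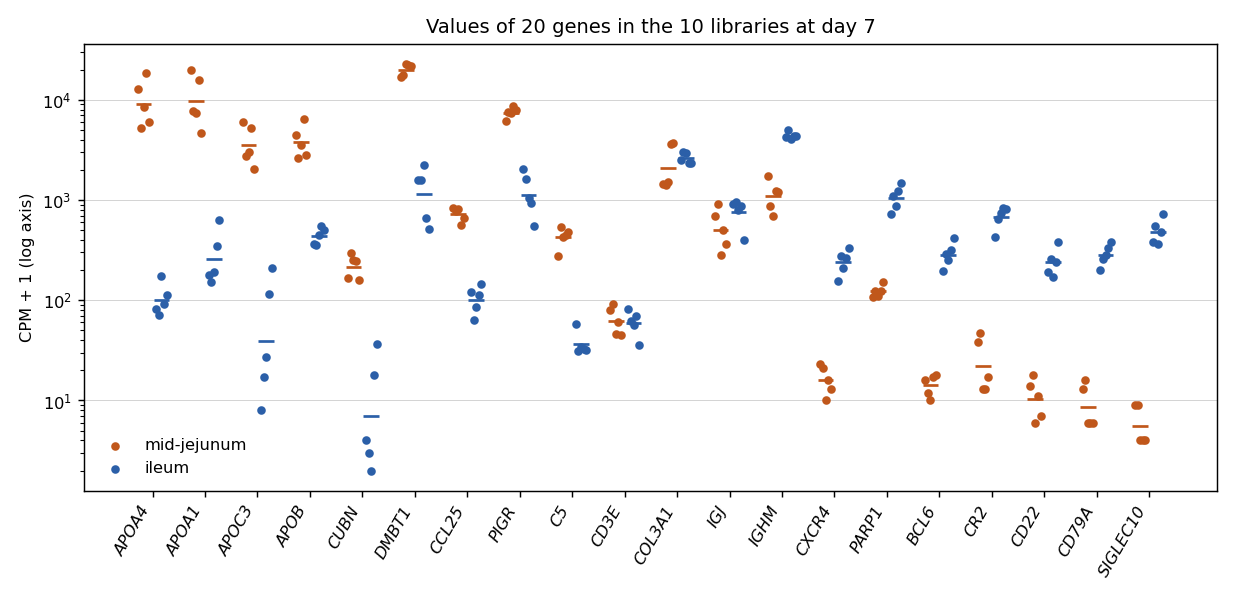
Each point is the value of 1 library plus 1, on a log axis, for 20 genes, with 5 mid-jejunum and 5 ileum libraries at D7 and the bar at their geometric mean. The groups separate fully for the genes at the left and at the right, and they overlap for CD3E, COL3A1 and IGJ.

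Brush border and nutrient uptake genes were likewise higher in the jejunum. Of 18 identifiers tested, 14 were higher in the jejunum, 0 were higher in the ileum and 4 were not called. Over all genes 9.62% and 17.5% were called, and the median log2 fold change of the group was 1.62. Outside the 141 set apart, 4 of 8 were called. By the same limma test without its fold limit, 2 of those not called, ALPL and 1 of the 3 identifiers of DPP4, were higher in the ileum at FDR < 0.05. The summed level of the 18 identifiers was 21578 to 27554 CPM in the jejunum and 1998 to 4154 CPM in the ileum. DMBT1 alone made up 16754 to 22622 CPM of it in the jejunum and 511 to 2237 CPM in the ileum.

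CUBN encodes cubilin and AMN encodes amnionless, which together form the receptor for the cobalamin and intrinsic factor complex. CUBN stood at 165, 292, 249, 243 and 160 CPM in the jejunum and at 3, 2, 1, 17 and 36 CPM in the ileum. The ileal values were 1 to 3 CPM in calves 1 to 3 and higher in calves 4 and 5 (log2 fold change 4.97, SE 0.67, FDR 3.79e-05). AMN stood at 277, 151, 148, 178 and 122 CPM in the jejunum and at 14, 14, 14, 39 and 63 CPM in the ileum. It followed the same order, with the ileal libraries of calves 4 and 5 above the other 3 (log2 fold change 2.79, SE 0.40, FDR 6.08e-05). DMBT1, a secreted mucosal scavenger protein, had the highest jejunal mean of the genes of the first table. It stood at 16754, 17784, 22622, 22041 and 21518 CPM in the jejunum and at 1595, 1587, 2237, 662 and 511 CPM in the ileum. The jejunal libraries differed little and the ileal ones by up to 4.38 times (log2 fold change 4.13, SE 0.37, FDR 1.35e-06).

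Smaller differences were seen for the amine oxidase MAOB (log2 fold change 2.70), the brush border cadherin CDHR2 (2.07), the microsomal glutathione transferase MGST1 (2.06), the iron and metal transporter SLC11A2 (1.63), the sodium pump subunit ATP1B1 (1.35) and the peptidase MME (1.17). All 6 were called, MME not without calf 2, and their limma FDR ranged from 9.02e-08 to 0.00796. DPP4, a dipeptidyl peptidase of the brush border, has 3 identifiers. Of these, 2 were higher in the jejunum (log2 fold changes 1.39 and 1.34) and the third, at 1 to 7 CPM, was not called (-0.93). Reads shared between such identifiers cannot be resolved from the files. ACE (-0.11) and EZR (-0.20), also apical proteins, were not called.

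General epithelial genes differed in the same direction, with a lower median. Of 18 tested, 12 were called toward the jejunum and 0 toward the ileum, against 9.62% and 17.5% of all genes. Their median log2 fold change was 1.32, and outside the 141 set apart 7 of 12 were called. EPCAM, the epithelial adhesion molecule, stood at 1642, 1218, 1449, 1169 and 1112 CPM in the jejunum and at 607, 591, 623, 389 and 277 CPM in the ileum. Its groups did not overlap (log2 fold change 1.46, SE 0.22, FDR 1.11e-04). CDH17, the intestinal cadherin, stood at 1665, 1303, 2027, 1861 and 1351 CPM in the jejunum and at 695, 548, 750, 449 and 320 CPM in the ileum. It also separated the regions (log2 fold change 1.61, SE 0.23, FDR 5.45e-05). The desmosome genes DSG2 (0.45), DSP (0.36) and DSC2 (0.62) were not called.

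Between the regions, these general markers differed in the same direction as the absorptive genes. CDH17 and CDHR2 are members of both the epithelial and the brush border group, so these groups and their sums share genes. Their summed level was 5538 to 7302 CPM in the jejunum and 1733 to 3216 CPM in the ileum, while the summed B lineage level went the other way, with 1539 to 3690 CPM in the jejunum and 10361 to 12341 CPM in the ileum. Within the ileum the order by calf differed between groups. Calf 5 had the lowest epithelial sum (1733 CPM) and the lowest brush border sum (1998 CPM) but the highest lipid sum (3630 CPM). APOE, which was higher in the ileum, made up 1459 CPM of that lipid sum. The part of the tissue make-up in the single-gene differences was not tested.

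Among 12 tight junction genes, 4 were called toward the jejunum and 0 toward the ileum, against 9.62% and 17.5% of all genes. Their median log2 fold change was 0.54, and outside the 141 set apart 3 of 11 were called. MPZL2, an epithelial adhesion protein, stood at 45, 46, 49, 52 and 42 CPM in the jejunum and at 5, 3, 6, 4 and 5 CPM in the ileum. CLDN2, the claudin that forms a cation pore, stood at 783, 685, 794, 556 and 667 CPM in the jejunum and at 189, 182, 209, 191 and 174 CPM in the ileum. Both separated the regions (MPZL2 log2 fold change 3.12, SE 0.16, FDR 2.24e-08 and CLDN2 log2 fold change 1.87, SE 0.12, FDR 8.80e-08). CLDN7 (1.30) and CXADR (1.16) were also called, and CXADR was no longer called without calf 4 or without calf 5. CLDN3 and CLDN4 were not called (0.12 and -0.19), and their values overlapped. Claudins are paralogs, and whether reads were split between copies was not tested.

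Secretory cell markers moved in both directions, with 1 of 4 genes called toward the jejunum and 2 toward the ileum, or 0 and 2 of 3 outside the 141 set apart. Over all genes the shares called were 9.62% and 17.5%. FCGBP, a mucus protein of goblet cells, stood at 1767, 1612, 1907, 2949 and 2474 CPM in the jejunum and at 869, 650, 664, 721 and 536 CPM in the ileum. It was higher in the jejunum (log2 fold change 1.62, SE 0.19, FDR 1.16e-05). AGR2, another goblet cell protein, stood at 454, 713, 893, 321 and 587 CPM in the jejunum and at 652, 361, 760, 185 and 106 CPM in the ileum. These values overlapped, and AGR2 was not called (log2 fold change 0.79, SE 0.49, FDR 0.175). GCG, the glucagon precursor of enteroendocrine L cells, stood at 11, 8, 12, 7 and 11 CPM in the jejunum and at 64, 36, 58, 43 and 35 CPM in the ileum. It was higher in every ileal library (log2 fold change -2.14, SE 0.20, FDR 1.98e-06). GCNT3, a mucin glycosyltransferase, was higher in the ileum (log2 fold change -1.88, SE 0.52, FDR 0.00713) through calves 1 to 4, the value in calf 5 being 39 CPM in the jejunum and 21 CPM in the ileum, and it was not called without calf 2.

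The second table added 12 epithelial genes, of which 9 were called toward the jejunum and 1 toward the ileum. Over all genes the shares were 9.62% and 17.5%. That table lists genes that changed with age in the study. PDX1, a transcription factor of the duodenum and pancreas, stood at 41, 44, 51, 42 and 47 CPM in the jejunum and at 0 CPM in all 5 libraries in the ileum. SOAT2, which esterifies cholesterol for chylomicrons, stood at 53, 68, 39, 80 and 37 CPM in the jejunum and at 0 CPM in all 5 libraries in the ileum. Both were listed at 0 in all 5 ileal libraries, so no fold change is given, and both were called (limma FDR 5.71e-11 for PDX1 and 1.81e-09 for SOAT2).

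CLDN15, a claudin of the small intestinal epithelium, stood at 240, 277, 184, 141 and 215 CPM in the jejunum and at 28, 22, 21, 28 and 32 CPM in the ileum. The iron exporter SLC40A1 stood at 687, 866, 493, 991 and 417 CPM in the jejunum and at 122, 79, 108, 93 and 103 CPM in the ileum. Both separated the regions (CLDN15 log2 fold change 2.94, SE 0.18, FDR 7.20e-08 and SLC40A1 log2 fold change 2.70, SE 0.22, FDR 6.75e-07). REG3G, an antimicrobial lectin (log2 fold change 2.01), the galectin LGALS4 (1.25), the keratin KRT8 (1.16) and the endocytic receptor LRP2 (2.17) were also called, although LRP2 was at 0 to 34 CPM in the jejunum and at 0 or 1 CPM in the ileum and was not called without calf 2, 3 or 4. KRT8 was not called without calf 5. The bile acid receptor NR1H4 was higher in the ileum (log2 fold change -1.06, SE 0.22, FDR 9.44e-04), and this call was lost after median-ratio scaling and without calf 1 or 3. OLFM4, a marker of crypt base cells, was not called (0.47), with 97 to 1264 CPM in the ileum.

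B lineage and germinal centre genes made up the largest differences toward the ileum. Of 30 tested, 28 were higher in the ileum, 0 were higher in the jejunum and 2 were not called. Over all genes 17.5% and 9.62% were called, and the group's median log2 fold change was -3.23 against -0.25 over all genes. Outside the 141 set apart, 10 of 12 were called. The 2 not called, IRF8 (-0.74) and CD38 (-0.98), also lay toward the ileum, below the fold limit.

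SIGLEC10, an inhibitory lectin of B cells, stood at 8, 8, 3, 3 and 3 CPM in the jejunum and at 377, 544, 360, 484 and 717 CPM in the ileum. The lowest ileal library was 45.0 times the highest jejunal one (log2 fold change -6.44, SE 0.28, FDR 8.63e-09). CR2, the complement receptor of B cells and follicular dendritic cells, stood at 37, 46, 12, 12 and 16 CPM in the jejunum and at 427, 651, 738, 839 and 816 CPM in the ileum. Its groups were far apart (log2 fold change -4.94, SE 0.36, FDR 2.39e-07). CD22, a B cell co-receptor, stood at 13, 17, 5, 10 and 6 CPM in the jejunum and at 190, 255, 171, 241 and 383 CPM in the ileum. It was separated in the same way (log2 fold change -4.54, SE 0.30, FDR 1.26e-07).

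BLNK, the adaptor of B cell receptor signalling, stood at 13, 12, 6, 7 and 6 CPM in the jejunum and at 200, 251, 260, 325 and 385 CPM in the ileum. BCL6, the transcription factor that defines germinal centre B cells, stood at 15, 11, 9, 16 and 17 CPM in the jejunum and at 196, 286, 250, 318 and 418 CPM in the ileum. Neither overlapped (BLNK log2 fold change -4.89, SE 0.23, FDR 1.57e-08 and BCL6 log2 fold change -4.32, SE 0.21, FDR 1.82e-08). POU2F2 (log2 fold change -4.63), IKZF3 (-4.49) and EBF1 (-3.20), transcription factors of B cells, were called, as were the germinal centre gene LRMP (-4.51), the kinases BLK (-3.69) and BTK (-3.27), the cytokine receptor IL21R (-4.24) and FCHO1 (-4.05). In the jejunum these genes lay between 1 and 20 CPM.

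CXCL13, the chemokine that draws B cells into follicles, stood at 23, 29, 8, 4 and 7 CPM in the jejunum and at 96, 204, 147, 370 and 106 CPM in the ileum. CXCR4, a receptor of dividing germinal centre B cells and of many other cells, stood at 22, 20, 9, 15 and 12 CPM in the jejunum and at 155, 277, 210, 261 and 329 CPM in the ileum. Both were higher in every ileal library (CXCL13 log2 fold change -3.76, SE 0.49, FDR 3.08e-05 and CXCR4 log2 fold change -3.92, SE 0.25, FDR 8.80e-08). CXCL12, the ligand of CXCR4, was higher in the ileum by a smaller amount (log2 fold change -1.31, SE 0.18, FDR 4.60e-05).

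The second table added 6 B lineage genes, and all 6 were higher in the ileum, against 17.5% of all genes. Of these, NUGGC (-1.11) was not called after median-ratio scaling or without calf 5. CD79A, a signalling chain of the B cell receptor, stood at 12, 15, 5, 5 and 5 CPM in the jejunum and at 198, 260, 280, 330 and 382 CPM in the ileum. Its partner CD79B stood at 8, 8, 1, 2 and 2 CPM in the jejunum and at 167, 219, 228, 277 and 364 CPM in the ileum. MS4A1, the CD20 antigen, stood at 5, 9, 1, 1 and 1 CPM in the jejunum and at 168, 295, 244, 277 and 364 CPM in the ileum. These 3 had log2 fold changes of -5.06 (SE 0.29), -5.83 (SE 0.40) and -6.25 (SE 0.43). VPREB3, a protein of immature B cells, stood at 4, 2, 0, 0 and 0 CPM in the jejunum and at 113, 264, 190, 223 and 235 CPM in the ileum. It was listed at 0 in 3 of the 5 jejunal libraries (log2 fold change -6.85, SE 0.44, FDR 1.06e-07).

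Immunoglobulin genes had smaller log2 fold changes than the median of the B lineage group. IGHM, the heavy chain of immunoglobulin M, stood at 1749, 870, 694, 1218 and 1206 CPM in the jejunum and at 4303, 4965, 4054, 4343 and 4365 CPM in the ileum. It was higher in every ileal library (log2 fold change -2.01, SE 0.22, FDR 7.61e-06). IGLL1 stood at 1384, 1610, 475, 680 and 678 CPM in the jejunum and at 2676, 2771, 2172, 2243 and 1952 CPM in the ileum. It too was higher in the ileum (log2 fold change -1.43, SE 0.30, FDR 0.00116). IGJ, the joining chain of secreted immunoglobulins A and M, stood at 696, 908, 279, 506 and 366 CPM in the jejunum and at 919, 948, 786, 873 and 397 CPM in the ileum. These groups overlapped, and IGJ was not called (log2 fold change -0.57, SE 0.32, FDR 0.141).

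Genes of plasma cells and of IgA transport did not follow 1 direction. IRF4, which B cells and plasma cells use, stood at 5, 5, 3, 6 and 5 CPM in the jejunum and at 36, 46, 39, 52 and 48 CPM in the ileum. MZB1, a chaperone of secreted immunoglobulin, stood at 20, 29, 10, 11 and 8 CPM in the jejunum and at 47, 49, 34, 34 and 26 CPM in the ileum. Both were higher in the ileum (IRF4 log2 fold change -2.97, SE 0.17, FDR 4.68e-08 and MZB1 log2 fold change -1.35, SE 0.31, FDR 0.00206), MZB1 with 1 jejunal library inside the ileal range. PRDM1, the plasma cell transcription factor, was not called (-0.56). PIGR, the polymeric immunoglobulin receptor of the epithelium, stood at 6155, 7506, 7365, 8722 and 7830 CPM in the jejunum and at 2037, 1608, 1047, 944 and 556 CPM in the ileum. It was higher in every jejunal library (log2 fold change 2.73, SE 0.30, FDR 6.91e-06), with ileal values that ran from 556 CPM in calf 5 to 2037 CPM in calf 1.

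**Figure D2:**
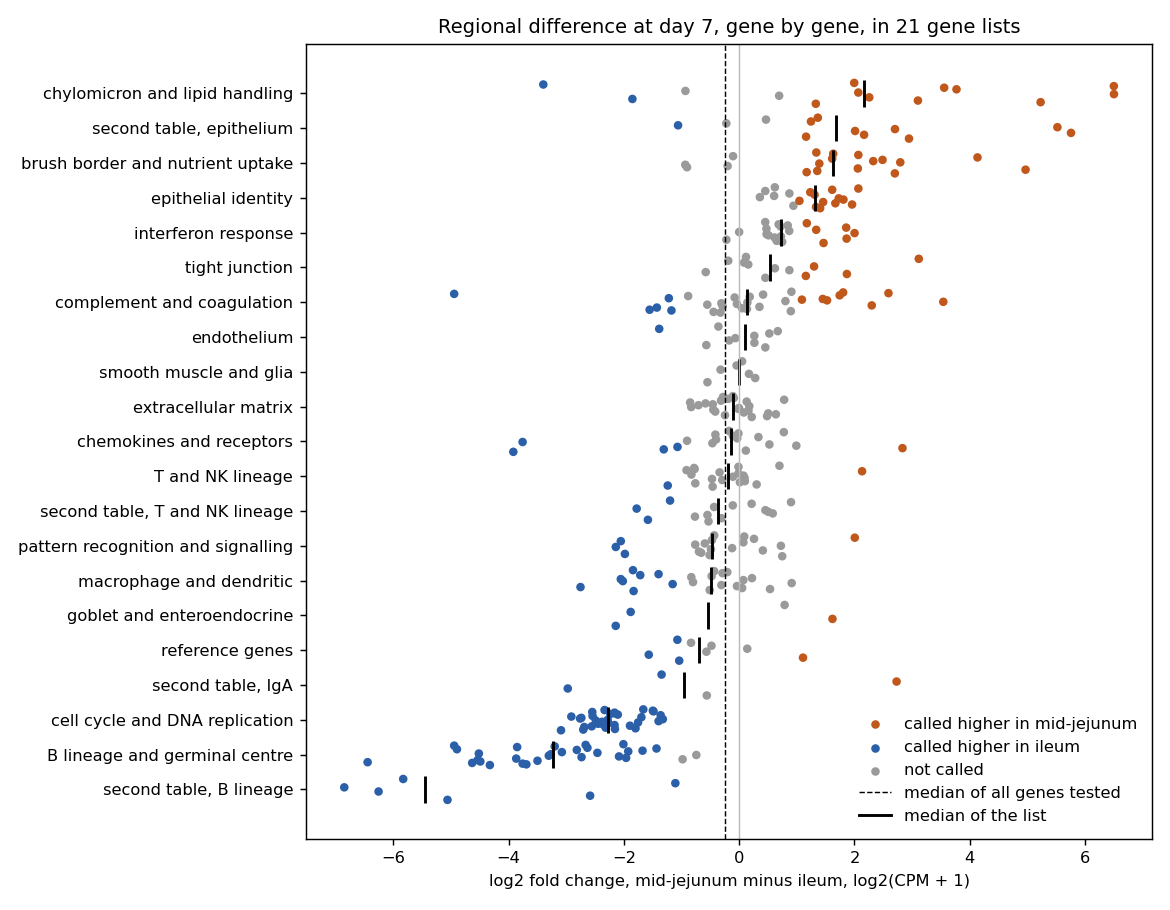
Each point is 1 gene of a list, placed by its log2 fold change of mid-jejunum minus ileum on log2(CPM + 1), with short bars at the list medians and a dashed line at the median of all genes tested (-0.25). Lipid, brush border and epithelial lists lie to the right with medians of 1.32 to 2.16, while the cell cycle and B lineage lists lie wholly to the left.

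All 33 cell cycle and DNA replication genes tested were higher in the ileum, against 17.5% of all genes, with a median log2 fold change of -2.27 and a range of -3.09 to -1.32. Outside the 141 set apart, 18 of 18 were called. All 33 were also called after median-ratio scaling and without any 1 calf, and for all 33 the values did not overlap between regions, against 32.0% of all genes. The genes were chosen with earlier results of these data known, so these counts are a description.

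PARP1, a DNA damage sensor, stood at 108, 124, 110, 123 and 151 CPM in the jejunum and at 732, 1100, 878, 1225 and 1465 CPM in the ileum. It had the largest difference of the group (log2 fold change -3.09, SE 0.18, FDR 4.98e-08). MCM2, a subunit of the replicative helicase, stood at 67, 74, 78, 53 and 90 CPM in the jejunum and at 238, 333, 294, 391 and 495 CPM in the ileum. CDC6, which loads that helicase, stood at 7, 11, 12, 7 and 11 CPM in the jejunum and at 54, 68, 67, 97 and 113 CPM in the ileum. Both separated the regions (MCM2 log2 fold change -2.23, SE 0.19, FDR 9.58e-07 and CDC6 log2 fold change -2.91, SE 0.22, FDR 3.12e-07). AURKB, a mitotic kinase, stood at 47, 46, 44, 27 and 45 CPM in the jejunum and at 135, 179, 164, 216 and 260 CPM in the ileum. CDK1, the kinase that starts mitosis, stood at 19, 24, 29, 19 and 32 CPM in the jejunum and at 56, 85, 89, 86 and 91 CPM in the ileum. They were called as well (AURKB log2 fold change -2.15, SE 0.19, FDR 1.33e-06 and CDK1 log2 fold change -1.70, SE 0.18, FDR 4.94e-06). The summed level of the 33 genes was 809 to 1203 CPM in the jejunum and 3548 to 6397 CPM in the ileum. Like the summed level of the B lineage genes given above, it was higher in the ileum, and the part of B lineage cells in it was not tested.

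Few T cell genes were called. Of 20 T and NK lineage genes, 1 was called toward the jejunum and 1 toward the ileum, against 9.62% and 17.5% of all genes. Their median log2 fold change was -0.20. The counts were 0 and 1 of 19 outside the 141 set apart. CD3E, a chain of the T cell receptor complex, stood at 79, 90, 45, 59 and 44 CPM in the jejunum and at 80, 61, 55, 68 and 35 CPM in the ileum. The groups overlapped (log2 fold change 0.07, SE 0.24, FDR 0.807). CD3D (0.01, SE 0.24), CD3G (0.10, SE 0.24) and CD2 (-0.34, SE 0.20) were not called either, and CD8A (log2 fold change -0.78, SE 0.46, FDR 0.158) varied from 5 to 39 CPM in the ileum.

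CD69, an early activation marker, was higher in the ileum (log2 fold change -1.24, SE 0.19, FDR 1.06e-04), and this call was lost after median-ratio scaling. Of the 14 identifiers from the second table, 0 were called toward the jejunum and 3 toward the ileum, against 9.62% and 17.5% of all genes. The ileal count was near the background. The 3 were CD4 (-1.58), the lymph node homing receptor CCR7 (-1.78) and LAG3 (-1.20), and LAG3 was not called after median-ratio scaling.

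**Figure D3:**
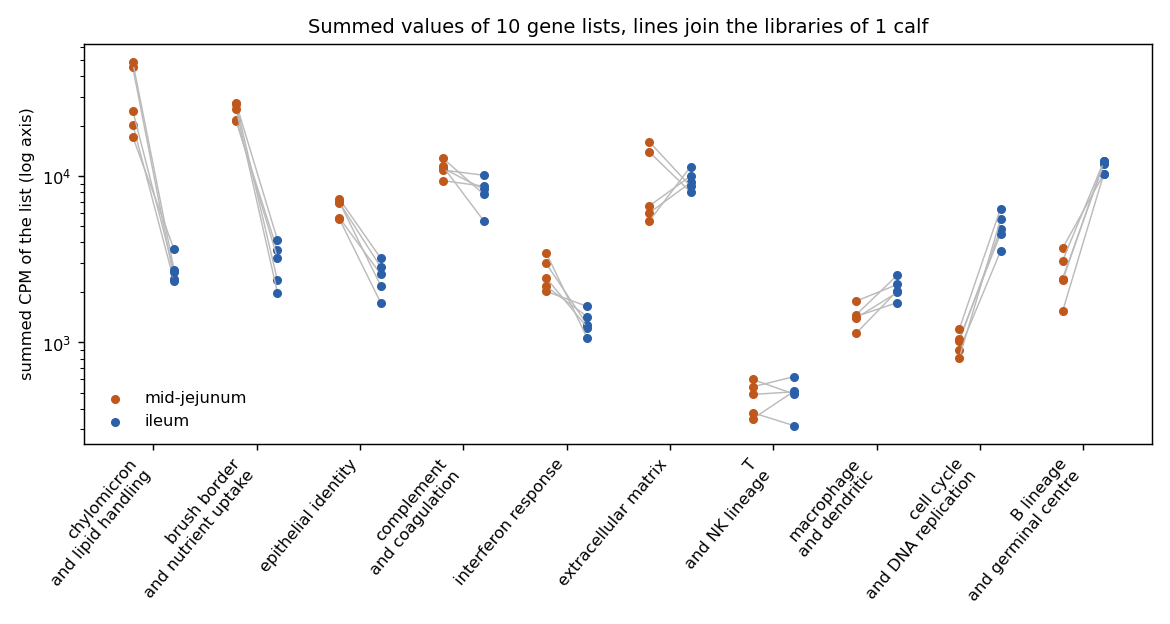
Each point is the summed CPM of the genes of a list in 1 library, on a log axis, and a line joins the 2 libraries of 1 calf. Sums of lipid, brush border and epithelial genes fall from mid-jejunum to ileum in 5 of 5 calves and those of cell cycle and B lineage genes rise in 5 of 5, while T and NK lineage sums lie at 347 to 599 CPM and 316 to 623 CPM. In mid-jejunum most of the brush border sum is DMBT1.

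Of 22 macrophage and dendritic cell genes, 8 were higher in the ileum and 0 in the jejunum, against 17.5% and 9.62% of all genes. Their median log2 fold change was -0.49. After median-ratio scaling 7 were called in the ileum and 1 in the jejunum, against 12.2% and 13.9% of all genes. Without that scaling, 7 of 21 were called toward the ileum outside the 141 set apart, and 0 toward the jejunum. CD14, the lipopolysaccharide co-receptor, stood at 25, 21, 28, 21 and 47 CPM in the jejunum and at 114, 144, 130, 103 and 94 CPM in the ileum. It was higher in every ileal library (log2 fold change -2.05, SE 0.21, FDR 3.31e-06). CD86 (-2.02), ITGAM (-1.84), CD68 (-1.83), CD163 (-1.72), CYBB (-1.40) and FGR (-1.15) were also called, FGR not after median-ratio scaling or with a pseudocount of 5. The macrophage genes C1QA (0.05) and CSF1R (-0.80) were not called.

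The share of genes that sense bacteria called toward the ileum lay near that of all genes. Among 19 pattern recognition and signalling genes, 3 were higher in the ileum, 1 was higher in the jejunum and 15 were not called, with a median log2 fold change of -0.47, against 17.5% and 9.62% called over all genes. Of the 16 genes outside the 141 set apart, 1 was called toward the ileum and 0 toward the jejunum. For 8 of the 19 every ileal value lay above every jejunal one, against 32.0% of all genes, and for 1 the reverse held. TLR4, the lipopolysaccharide receptor, stood at 7, 5, 7, 10 and 8 CPM in the jejunum and at 28, 36, 37, 31 and 27 CPM in the ileum. TLR2, the lipopeptide receptor, stood at 1, 3, 3, 4 and 4 CPM in the jejunum and at 16, 15, 17, 16 and 15 CPM in the ileum. The regions did not overlap (TLR4 log2 fold change -1.98, SE 0.17, FDR 9.08e-07 and TLR2 log2 fold change -2.14, SE 0.23, FDR 6.11e-06). TICAM1, the adaptor of TLR3 and TLR4, stood at 69, 44, 63, 65 and 52 CPM in the jejunum and at 17, 13, 13, 11 and 15 CPM in the ileum. It went the other way (log2 fold change 2.0, SE 0.15, FDR 3.64e-07). After median-ratio scaling 3 genes of this group were called toward the jejunum and 3 toward the ileum, against 13.9% and 12.2% of all genes.

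Of 30 complement and coagulation genes tested, 8 were called toward the jejunum and 5 toward the ileum, with a median log2 fold change of 0.14. Over all genes the shares were 9.62% and 17.5%, so the count toward the ileum was near the background. Outside the 141 set apart, 3 and 4 of 24 were called. After median-ratio scaling the counts were 11 and 3, against 13.9% and 12.2% of all genes, with CLU and A2M no longer called.

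C5, the precursor of the anaphylatoxin C5a, stood at 277, 543, 425, 445 and 478 CPM in the jejunum and at 57, 30, 33, 32 and 31 CPM in the ileum. Its ileal values were close to each other apart from calf 1 (log2 fold change 3.54, SE 0.20, FDR 5.01e-08). CFB, which supplies the convertase of the alternative pathway, stood at 2328, 1653, 1891, 2170 and 1421 CPM in the jejunum and at 782, 512, 553, 538 and 361 CPM in the ileum. It separated the regions (log2 fold change 1.8, SE 0.20, FDR 8.29e-06). C8G (2.30), the inhibitor CFI (1.74), the pore protein C9 (1.52) and coagulation factor F5 (1.45) were also higher in the jejunum.

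C3, the central component, stood at 3162, 2681, 3477, 4575 and 4177 CPM in the jejunum and at 3087, 2487, 1985, 1394 and 609 CPM in the ileum. Its ileal values spanned 5.07-fold and overlapped the jejunal ones, and its call (log2 fold change 1.09, SE 0.37, FDR 0.0211) was lost without calf 3, 4 or 5. The genes higher in the ileum were CR2, described above, the membrane inhibitor CD55 (-1.55), F13A1 (-1.43), A2M (-1.22) and CLU (-1.18). The genes of the first component, C1QA, C1QB, C1QC, C1R and C1S, were not called, with log2 fold changes of -0.44 to 0.05.

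CCL25, the chemokine by which small intestinal epithelium attracts lymphocytes, stood at 836, 772, 812, 565 and 666 CPM in the jejunum and at 119, 63, 84, 113 and 145 CPM in the ileum. It was the 1 chemokine gene of 18 that was higher in the jejunum (log2 fold change 2.83, SE 0.20, FDR 2.39e-07), and 3 were after median-ratio scaling. With 4 of the 18 called toward the ileum, the counts lay near the 9.62% and 17.5% of all genes. Of the 15 genes outside the 141 set apart, 0 and 2 were called without that scaling. The CCL25 receptor CCR9 stood at 17, 15, 6, 17 and 11 CPM in the jejunum and at 16, 16, 14, 14 and 6 CPM in the ileum. CCR9 was not called (log2 fold change -0.01, SE 0.30, FDR 0.975). The 4 genes of this group higher in the ileum were CXCL13, CXCR4 and CXCL12, given above, and CCRL2 (-1.07). CCRL2 stood at 1 to 7 CPM and was not called after median-ratio scaling or without calf 1.

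ADA, adenosine deaminase, stood at 1867, 1056, 894, 1217 and 557 CPM in the jejunum and at 55, 54, 47, 66 and 80 CPM in the ileum. FLRT3, an adhesion protein, stood at 124, 99, 107, 99 and 93 CPM in the jejunum and at 13, 6, 9, 8 and 9 CPM in the ileum. They completed the 10 largest jejunal differences among the genes of the first table (ADA log2 fold change 4.10, SE 0.26, FDR 1.02e-07 and FLRT3 log2 fold change 3.43, SE 0.17, FDR 1.76e-08).

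Of 20 interferon response genes, 6 were called toward the jejunum and 0 toward the ileum, against 9.62% and 17.5% of all genes. The median log2 fold change was 0.72, and after median-ratio scaling 10 were called toward the jejunum, against 13.9% of all genes. Outside the 141 set apart, 5 of 19 were called. ISG15, a ubiquitin-like modifier, stood at 256, 138, 149, 147 and 365 CPM in the jejunum and at 34, 79, 36, 64 and 41 CPM in the ileum. Its groups did not overlap (log2 fold change 2.0, SE 0.30, FDR 9.56e-05). CMPK2, a mitochondrial kinase, stood at 94, 80, 95, 112 and 123 CPM in the jejunum and at 23, 35, 20, 33 and 26 CPM in the ileum. It had the smallest standard error of the 6 genes (log2 fold change 1.86, SE 0.17, FDR 1.44e-06). IFI6 (1.86), IFITM3 (1.34), IFI27 (1.46) and IFI44 (1.17) were also called. IFI27 was 129 CPM in jejunal calf 4, within the ileal range of 89 to 187 CPM.

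Structural tissue genes mostly overlapped between the regions. None of 24 extracellular matrix genes was called by limma at the 2-fold limit, against 27.1% of all genes in either direction. Their median log2 fold change was -0.10, and 7 of the 24 had an unadjusted limma p under 0.05. COL3A1, a fibrillar collagen, stood at 1443, 1397, 1520, 3604 and 3703 CPM in the jejunum and at 2518, 3024, 2940, 2319 and 2353 CPM in the ileum. COL1A1, the main collagen of connective tissue, stood at 940, 658, 1119, 3015 and 3123 CPM in the jejunum and at 1294, 1878, 1461, 1248 and 1488 CPM in the ileum. In both genes the jejunal libraries of calves 4 and 5 were the highest of all 10, at more than 2 times the other jejunal libraries (COL3A1 log2 fold change -0.32, SE 0.30, FDR 0.375 and COL1A1 log2 fold change -0.00, SE 0.39, FDR 0.997). Without calf 4, 2 of the matrix genes were called higher in the ileum, and without calf 5, 1 was.

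DES, the muscle intermediate filament, stood at 826, 570, 593, 505 and 2579 CPM in the jejunum and at 1268, 1205, 623, 189 and 769 CPM in the ileum. Jejunal calf 5 was the highest library and ileal calf 4 the lowest, and the regions overlapped (log2 fold change 0.28, SE 0.54, FDR 0.673). None of the 6 smooth muscle and glial genes was called by limma, against 27.1% of all genes, and 0 had an unadjusted p under 0.05. Of 10 endothelial genes, 0 were called toward the jejunum and 1 toward the ileum, against 9.62% and 17.5% of all genes. The 1 was ICAM2 (log2 fold change -1.39, SE 0.20, FDR 7.55e-05), which was not called with a pseudocount of 5. CDH5 (-0.17) and CD93 (0.26), which mark endothelium, were not called.

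The regional difference at D7 was then compared with that at D21 and at D42 by the contrast of the differences, over 20 libraries each. The D7 libraries are shared by both contrasts, and the calves of different ages are different animals. In limma, 0 of 13942 genes (0%) passed at D21 in either direction, with 479 (3.44%) at an unadjusted p under 0.05 and a smallest FDR of 0.274. At D42, 0 genes (0%) passed, with 1110 (7.96%) at an unadjusted p under 0.05 and a smallest FDR of 0.505. A median standard error of 0.25 and 0.29 on the log2 scale stood behind these contrasts, and a contrast that misses the threshold does not show that the ages were alike. The ileum library of calf 1 at D42 stood apart from its group, with a per-calf log2 difference of 3.85 for IGHM against -2.29 to -0.10 in the other 4 calves, and 2 genes were called without that calf.

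Means of the per-calf differences at the 3 ages are given side by side. For APOA4 this mean was 6.50 (SD 0.93, n = 5) at D7, 7.29 (SD 1.21, n = 5) at D21 and 6.74 (SD 1.54, n = 5) at D42, or 6.75 without calf 1. For CCL25 it was 2.83 (SD 0.60, n = 5), 2.74 (SD 0.54, n = 5) and 2.77 (SD 0.76, n = 5), or 2.66 without calf 1 of D42. For CUBN it was 4.97 (SD 2.03, n = 5), 4.99 (SD 1.03, n = 5) and 2.98 (SD 2.74, n = 5), or 4.10 without calf 1 of D42. The limma contrasts of these genes were not past the threshold.

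For CR2, IGHM and IGJ the mean lay further toward the ileum at D7 than at D42, by -1.66 (SE 0.67, FDR 0.620), -1.88 (SE 0.92, FDR 0.639) and -2.89 (SE 1.01, FDR 0.601) in the limma contrast, which none of them passed. For CR2 the mean was -4.94 (SD 1.20, n = 5) at D7, -4.80 (SD 0.35, n = 5) at D21 and -3.28 (SD 1.73, n = 5) at D42, or -3.96 without calf 1. For IGHM it was -2.01 (SD 0.52, n = 5), -0.69 (SD 0.61, n = 5) and -0.13 (SD 2.35, n = 5), or -1.12 without calf 1 of D42. For IGJ it was -0.57 (SD 0.59, n = 5), 0.90 (SD 0.58, n = 5) and 2.32 (SD 2.53, n = 5), or 1.32 without calf 1 of D42. The contrasts of D7 with D21 were -1.32 for IGHM and -1.47 for IGJ, and neither passed in limma (FDR 1.00 for both). PARP1 had a mean of -3.09 (SD 0.23, n = 5) at D7, -2.95 (SD 0.20, n = 5) at D21 and -2.25 (SD 1.40, n = 5) at D42, or -2.84 without calf 1, and its contrast of D7 with D42 did not pass either (-0.84, SE 0.54, FDR 0.682).

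**Figure D4:**
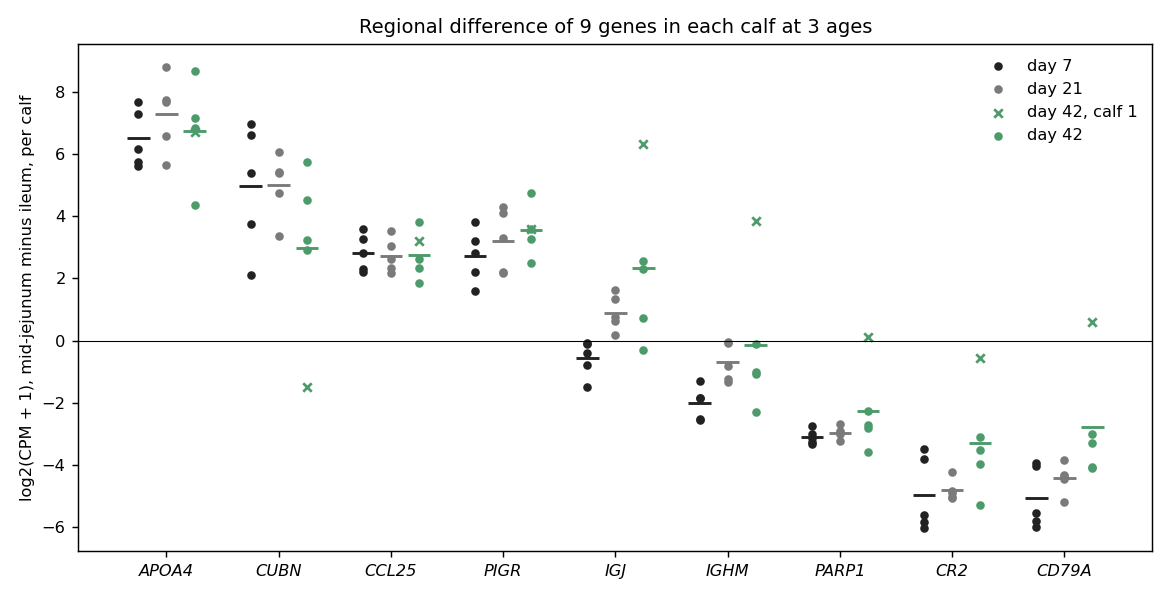
Each point is the difference of log2(CPM + 1) between mid-jejunum and ileum within 1 calf, for 9 genes at D7, D21 and D42, with 5 calves per age and bars at the means. Crosses mark calf 1 of D42. On the deposited scale all 5 IGJ values lie below 0 at D7 (-1.49 to -0.06) and all 5 lie above it at D21 (0.18 to 1.61). The limma contrast of these ages did not pass for IGJ. APOA4 and CCL25 lie above 0 in all 15 calves.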

How the data were processed

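RNA-Seq libraries of 10 tissue samples were compared, 5 of mid-jejunum and 5 of ileum at D7, grouped by the sample labels. Per the methods, mRNA libraries were read as paired ends, sorted with CASAVA 1.8, aligned to UMD 3.1 with TopHat2 2.0.10 and counted with HTSeq on Ensembl genes. The authors divided each count by the mapped reads of the library, and the deposited values are a score, namely that CPM rounded to whole numbers, for 21510 identifiers. The authors tested with edgeR on counts. The depth per library is unknown, and the smallest step of 1 CPM limits low genes.

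Here log2(CPM + 1) was tested, two-sided, with limma 3.58.1 in R 4.3.3 (lmFit, eBayes with trend) at FDR < 0.05 (Benjamini-Hochberg) and fold change > 2, for genes at 2 CPM or more in at least 50% of the 18 libraries of either region over all ages. Fold changes on this scale understate low genes. The fit was tested on simulated data. Python 3.11.15, pandas 2.3.3, numpy 2.4.6 and matplotlib 3.10.9 did the rest.

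Same-numbered libraries of an age come from 1 calf, per a legend of the study. Their deviations from the group means correlated at 0.07, -0.13, 0.32, 0.16 and 0.16 in calves 1 to 5. The highest correlation of each jejunal library with the ileum of another animal was 0.07, 0.16, -0.01, 0.05 and 0.11. In calves 1 and 2 these values did not single out the same animal. The calf was used as a block only as an alternative. Further alternatives were other pseudocounts, filters and scaling, all ages in 1 fit, FDR alone, and leaving out each calf. Leaving out each calf for the gene lists was added after seeing the data. Members and gene lists were chosen with earlier results of these data known. Named genes are list members, the 10 largest differences in each direction and the 5 highest means per region among first-table genes, and up to 2 identifiers without symbol in each direction. A few list members are counted and not reported here by name. Symbols came from the first and second gene tables of the study, which pair 1280 and 497 further identifiers with a symbol. The reference table holds 0 Ensembl identifiers. A search of promoters was planned and not run, since no sequences were at hand, and no sequence is printed.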

Additional observations from a re-analysis of the deposited data

Results flagged for a closer look

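Within groups of 5 libraries, a gap between the outermost value and its neighbour of more than 0.71 of the group's range was taken as unusual. Chance flags about 1 in 20 groups, and 20 of 340 groups of genes named here (5.88%) were marked.

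In the jejunum these were DES at 2579 CPM, FLNA at 2530 CPM, the second identifier of ACTB at 3093 CPM and CD14 at 47 CPM in calf 5, the 2 called identifiers of DPP4 at 191 and 127 CPM, AURKB at 27 CPM and NR1H4 at 17 CPM in calf 4, MME at 38 CPM in calf 2 and IFI6 at 544 CPM in calf 1.

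In the ileum these were CDHR2 at 270 CPM, CAMSAP3 at 68 CPM, CGN at 223 CPM, CDK1 at 56 CPM and C5 at 57 CPM in calf 1, ALPL at 23 CPM in calf 4, and APOE at 1459 CPM, CD38 at 19 CPM, CCR9 at 6 CPM and the identifier ENSBTAG00000015170 at 73 CPM in calf 5. The 3 muscle and cytoskeletal genes came from the same jejunal library and 3 epithelial genes from the same ileal library, and the part of tissue sampling in this was not tested.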

How the results depend on the processing

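Counts of genes called toward the jejunum and toward the ileum stayed within 1.5 times of 1341 and 2434 under every alternative except FDR < 0.05 alone, which gave 2905 and 5837. With a pseudocount of 5 they were 970 and 1701. The smallest and largest counts without 1 calf were 1292 and 1440 toward the jejunum and 2340 and 2545 toward the ileum. With the calf as a replicate block they were 1347 and 2436, and no call of a named gene changed. The contrast with D21 gave 0 and 0 genes, and 0 and 1 with a pseudocount of 0.1. The contrast with D42 gave 0 genes in each direction, and between 0 and 2 toward the ileum without 1 calf.

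Of 126 named identifiers called, 10 lost the call after median-ratio scaling, 9 with a pseudocount of 5 (MME, IHH, CD69, FGR, CCRL2, ICAM2, NUGGC, LAG3 and NR1H4), 8 with all ages in 1 fit (IHH, IGLL1, C3, IFI27, IFI44, NUGGC, MZB1 and REG3G) and 2 to 5 without 1 calf, and 0 changed direction under any setting. Median-ratio scaling moved the list counts for the jejunum to 1 for macrophage and dendritic, 3 for chemokines, 3 for pattern recognition, 10 for interferon, 1 for extracellular matrix and 1 for second-table T and NK genes, and those for the ileum to 0 for T and NK lineage, 3 for complement, 1 for reference and 0 for second-table epithelium. Without 1 calf, the ileal counts ranged over 0 to 1 for brush border, 1 to 2 for goblet and enteroendocrine, 1 to 2 for T and NK lineage, 0 to 2 for extracellular matrix, 1 to 3 for reference and 0 to 1 for second-table epithelium, and the jejunal ones over 1 to 2 for chemokines, 0 to 1 for reference and 0 to 1 for second-table T and NK genes. Over all genes, median-ratio scaling gave shares of 13.9% toward the jejunum and 12.2% toward the ileum. The causes were not tested. Low genes are limited by the 1 CPM step.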

Other observations

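Of 8 identifiers of genes often used as references, 1 was called toward the jejunum and 3 toward the ileum, against 9.62% and 17.5% of all genes. After median-ratio scaling the counts were 1 and 1, against 13.9% and 12.2% of all genes. B2M, the light chain of class I molecules, stood at 7716, 5967, 6117, 6038 and 4519 CPM in the jejunum and at 3892, 2905, 3443, 2811 and 1512 CPM in the ileum. It was called higher in the jejunum (log2 fold change 1.11, SE 0.26, limma FDR 0.00239), and not without calf 5. HPRT1 stood at 48, 58, 56, 35 and 60 CPM in the jejunum and at 122, 150, 146, 182 and 165 CPM in the ileum, which was a call toward the ileum (log2 fold change -1.57, SE 0.16, limma FDR 3.28e-06). Both identifiers of HSP90AB1 were called toward the ileum (-1.04 and -1.07), and neither after median-ratio scaling. GAPDH (-0.57), GNB2L1 (-0.48) and the main identifier of ACTB (-0.84) were below the fold limit. ACTG1 (-0.28) and CD74 (-0.59), which were among the 5 highest first-table genes of the ileum, were not called either.

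Some identifiers without a symbol differed by as much as the leading named genes. Toward the jejunum the fitted value of one of them was above that of every gene of the first table, and toward the ileum SIGLEC10 (-6.44) was beyond them. ENSBTAG00000015170 stood at 2911, 2841, 3358, 4854 and 3726 CPM in the jejunum and at 0, 0, 1, 10 and 73 CPM in the ileum (log2 fold change 9.63, SE 0.97, limma FDR 3.68e-06). ENSBTAG00000020196 stood at 1010, 745, 799, 1117 and 383 CPM in the jejunum and was listed at 0 in all 5 ileal libraries. ENSBTAG00000002609 stood at 1, 3, 0, 2 and 0 CPM in the jejunum and at 192, 128, 215, 182 and 100 CPM in the ileum (log2 fold change -6.39, SE 0.38, limma FDR 6.23e-08). ENSBTAG00000001785 stood at 1, 0, 0, 1 and 0 CPM in the jejunum and at 398, 614, 512, 42 and 2 CPM in the ileum, where calves 4 and 5 lay far below the other 3 (log2 fold change -6.38, SE 1.21, limma FDR 0.000546).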
